A study of Mus musculus with 5 samples.

Results

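Eomes cells with few transcripts of dividing cells were taken from single-cell RNA sequencing of the hippocampus of mouse pups at postnatal day 1. A kept cell had at least 500 genes, at least 1000 unique molecular identifiers (UMIs, each standing for 1 captured transcript) and at most 15% mitochondrial UMIs. A member cell was a kept cell with at least 2 UMIs of Eomes, at most 1 UMI of Mki67 and Top2a together, and no UMI of Trp73, Gad1 or Gad2. The members were thus chosen by measured UMIs of these 6 genes, whose levels are no result. The rule found 1651 member cells among 30699 kept cells of 40345 barcodes. They came from 2 libraries of Trem2 knockout pups (Trem2 -/-), KO replicates 2 and 3, with 314 and 257 member cells. The 3 libraries of wild-type pups (Trem2 +/+), WT replicates 1, 2 and 3, held 374, 330 and 376 member cells, and values are given in this order of libraries throughout.

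Each library was 1 pool of 2 pups, dissociated with papain and read at the 3' end of transcripts. No agent was given to either genotype as far as the labels say. Trem2 is a receptor on the surface of microglia, and the title of the study asks how it shapes the energy supply of neurons in development. The strain and the deleted part of Trem2 are not given in the sources used here, so a 3' read may lie outside that part. C1q Csf1r cells, which hold the microglia, were kept cells with no Eomes UMI and at least 5 UMIs of C1qa, C1qb and Csf1r together. In these cells Trem2 was at 38.2 and 52.5 CPM (UMIs of a gene on the counts-per-million scale) in the KO libraries. It was at 998, 1156 and 639.9 CPM in the WT libraries. In the member cells Trem2 had 0 UMIs in both KO libraries, and 0, 8 and 1 UMIs in the WT libraries. The member cells held 2421688 to 3437097 UMIs per library. The pooled library is the replicate, so the p-values measure the spread between pools.

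Eomes (Tbr2) is a T-box transcription factor of intermediate progenitors, the cells between radial glia and glutamatergic neurons of the cortex and hippocampus. In the newborn dentate gyrus such progenitors leave the ventricular zone for the forming granule cell layer, and their daughters take up Neurod1, Prox1 and, for a time, calretinin (Calb2). Neurogenin 2 (Neurog2) is the proneural factor that drives this step and is known to activate Neurod4 and Nhlh1. Notch signalling keeps radial glia undifferentiated, and intermediate progenitors carry its ligands.

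The promoters of Neurog2, of its known targets Neurod4 and Nhlh1, and of Tac2, which encodes the precursor of neurokinin B, are shown because these genes set the member cells apart from radial glia and neurons in the comparisons that follow. Each run is the RefSeq promoter on build GRCm38.p6, 250 bases before to 50 after the start of the gene, 5' to 3' on the gene's own strand. Capitals mark an E-box, by which the hexamer CAGATG and the hexamer CATATG and the hexamer CAGCTG are meant, motifs that proneural factors can bind. Neurog2 lies at chr3:127632886-127633185 on the plus strand, Neurod4 at chr10:130280089-130280388 on the minus strand, Tac2 at chr10:127724228-127724527 on the plus strand and Nhlh1 at chr1:172057547-172057846 on the minus strand.
Neurog2: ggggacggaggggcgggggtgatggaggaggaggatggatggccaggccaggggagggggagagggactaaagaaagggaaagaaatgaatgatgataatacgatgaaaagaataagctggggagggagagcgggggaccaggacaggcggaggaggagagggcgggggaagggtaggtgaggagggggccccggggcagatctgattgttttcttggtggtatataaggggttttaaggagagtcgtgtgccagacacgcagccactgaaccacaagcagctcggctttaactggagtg
Neurod4: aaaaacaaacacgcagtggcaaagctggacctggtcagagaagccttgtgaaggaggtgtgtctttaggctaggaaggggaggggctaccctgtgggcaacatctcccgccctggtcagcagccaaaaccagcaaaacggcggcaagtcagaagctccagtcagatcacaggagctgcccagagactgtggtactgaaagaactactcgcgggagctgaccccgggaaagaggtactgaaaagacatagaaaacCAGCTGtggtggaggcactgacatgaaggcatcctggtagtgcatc
Tac2: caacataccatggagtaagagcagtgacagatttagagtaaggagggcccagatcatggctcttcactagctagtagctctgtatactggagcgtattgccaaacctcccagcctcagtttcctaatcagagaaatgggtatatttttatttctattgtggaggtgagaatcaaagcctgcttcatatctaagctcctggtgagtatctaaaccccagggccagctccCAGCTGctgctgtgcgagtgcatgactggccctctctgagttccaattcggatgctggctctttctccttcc
Nhlh1: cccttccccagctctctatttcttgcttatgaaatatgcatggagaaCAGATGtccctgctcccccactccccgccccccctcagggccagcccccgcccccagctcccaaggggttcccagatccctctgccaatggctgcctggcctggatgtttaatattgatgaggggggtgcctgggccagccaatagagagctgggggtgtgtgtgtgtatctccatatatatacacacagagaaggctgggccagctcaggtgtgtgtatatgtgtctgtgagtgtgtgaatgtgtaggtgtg
The Neurod4 run held CAGCTG 4 bases after the start. The Tac2 run held CAGCTG 22 bases before it, and the Nhlh1 run held CAGATG 203 bases before it. The Neurog2 run held none of the hexamers, nor did a second Neurod4 start in the same table. Both strands were searched, on which CAGCTG and CATATG read the same. At least 1 of the hexamers stood in 33.4% of 32851 promoters of this length, with CAGCTG in 16.3%, CAGATG in 17.2% and CATATG in 3.91%. The T-box sequence AGGTGTGA stood in 1.28% of them and in none of the runs shown. These matches are a description, and Mfap4, Igfbpl1 and Mfng were not matched in the table.

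The member cells carried the genes given as markers of intermediate progenitors. Igfbpl1, a gene of newborn neuronal precursors, was at 2811 and 2490.4 CPM in the KO libraries and 2624, 2755 and 2975 CPM in the WT libraries. Mfap4, which encodes an extracellular matrix protein, was at 548 and 443 CPM in the KO libraries and 549.6, 536 and 508 CPM in the WT libraries. Neurog2 ranged more, with 162 and 84.2 CPM in the KO libraries and 138, 177 and 139 CPM in the WT libraries. All libraries carried these 3 genes, and KO replicate 3 was lowest for each. Mfng, a glycosyltransferase that modifies Notch receptors, was at 56.7 and 50.0 CPM in the KO libraries and 45.4, 49.0 and 41.9 CPM in the WT libraries. Its KO libraries lay above its WT libraries, and the genotypes did not overlap in 17.2% of all genes. With each cell thinned to 4000 UMIs, which left out 17 shallower member cells, Igfbpl1 had a UMI in 96.6% of 1634 member cells, Mfap4 in 65.2%, Neurog2 in 30.7% and Mfng in 18.7%. Without thinning these shares were 97.8%, 77.5%, 43.4% and 32.5%. In C1q Csf1r cells, microglia being another lineage, the thinned shares were 14.1% for Igfbpl1 and 1.31% each for Mfap4 and Neurog2. For Mfng these cells are no background, since 9.69% of them had a UMI, against 2.23% of Neurod1 cells and 0.514% of Pax6 Sox2 cells, the sets described next. Igfbpl1 was not particular to member cells, with a UMI in 97.8% of dividing Eomes cells, also described next, and 91.2% of Neurod1 cells. In dividing Eomes cells the shares were 58.2% for Mfap4 and 52.0% for Neurog2, and in Neurod1 cells 12.8% and 4.44%. The median depth was 8340 UMIs in member cells and 8189 UMIs in C1q Csf1r cells, of which 134 were too shallow to thin.

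Other cell sets of the same libraries serve as comparison. Dividing Eomes cells (721 cells) met the rule but had at least 2 UMIs of Mki67 and Top2a. Pax6 Sox2 cells (2606 cells) had no Eomes and at least 1 UMI each of Pax6 and Sox2, genes of radial glia, and Neurod1 cells (7572 cells) had no Eomes and at least 2 UMIs of Neurod1. Both kept the limits on the other rule genes, and 123 cells fell in both.

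Part of the member cells carried transcripts of S phase, so the word postmitotic does not describe all of them and they are named by their rule. With each cell thinned to 4000 UMIs, the 20 S-phase genes of a list, such as the replication helicase subunits Mcm2 and Mcm3, summed to a mean of 3.47 UMIs in member cells. The mean was 14.9 UMIs in dividing Eomes cells, 2.28 in Pax6 Sox2 cells and 1.55 in Neurod1 cells. At least 5 such UMIs stood in 19.2% of member cells, against 83.5% of dividing Eomes cells, 11.1% of Pax6 Sox2 cells and 2.60% of Neurod1 cells. The 177 member cells with 1 UMI of Mki67 or Top2a had 1662 ± 115 CPM of summed S-phase genes, against 783 ± 116 CPM in the 1474 with none (SD, n = 5 libraries each). Mki67 and Top2a chose the cells, so these levels carry no test.

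KO replicate 3 held a group of member cells that the markers did not describe. These cells, singled out after their values were seen, had at least 1 UMI of Ebf3 and at least 3 UMIs of Nefl. They numbered 0 and 33 in the KO libraries, or 0 and 12.8% of member cells, and 0, 6 and 0 in the WT libraries, or 0, 1.82 and 0%. Of these 39 cells all had Calb2, Stmn2, Snhg11, Tshz2, Camk2n1 and Meg3. Igfbpl1 had a UMI in 9 of them (23.1%), against 99.6% of the 1612 other member cells. Mfap4 had a UMI in 1, Neurod1 in 2, Prox1 in 1 and Neurog2 in 0 of the 39, against 79.3%, 82.2%, 80.8% and 44.4% of the others. Their Eomes level was 585 CPM, against 589.8 CPM in the others. They stay unnamed and are called the Ebf3 Nefl cells, and results that turn on them are given with and without them.

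At least 3 marker genes of another cell type were present in 59 member cells (3.57%). A list of Cajal-Retzius cells accounted for 34, oligodendrocyte precursors for 8, microglia for 6, endothelium for 5, fibroblasts and choroid plexus for 5, red cells for 3 and interneurons for 0. The cells with Cajal-Retzius genes numbered 1 and 17 in the KO libraries and 7, 5 and 4 in the WT libraries. KO replicate 3, the highest, also holds 33 of the 39 Ebf3 Nefl cells. The Cajal-Retzius list includes Ebf3 and Calb2, which all 39 carried, so this count is not independent of how those cells were chosen. Reln, another gene of the list, had a UMI in 2 of the 39. Trp73, Gad1 and Gad2 were at 0 by rule. The 10 microglial genes, all of them detected, summed to 1.72 and 3.72 CPM in the KO libraries and 48.9, 47.1 and 5.85 CPM in the WT libraries. Single cells carried much of this for C1qb, with 18 of 31 UMIs in 1 cell of WT replicate 1. In WT replicate 2, 1 cell held 20 of 21, and in WT replicate 3 no cell held more than 1 of 5. No barcode sequence was shared by member cells of different libraries, and 12 member cells had the barcode of a kept cell in another library.

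Within the Eomes cells, levels of other genes followed the number of Eomes UMIs, which is a description since Eomes chose the cells. Just outside the rule, 934 cells with 1 Eomes UMI had Neurog2 at 33.0 ± 7.78 CPM, Tac2 at 231 ± 28.6 CPM and Mfap4 at 293 ± 75.6 CPM (SD, n = 5 libraries). Just inside it, 387 cells with 2 Eomes UMIs had Neurog2 at 75.0 ± 27.0 CPM, Tac2 at 509 ± 127 CPM and Mfap4 at 428 ± 48.3 CPM. Neurog2 stood at 219 ± 65.2 CPM in the 264 member cells with 9 or more Eomes UMIs. The same held for other genes of progenitors. Neurod4, a proneural factor, was at 37.0 ± 5.18 CPM with 2 Eomes UMIs and 114 ± 29.8 CPM with 9 or more. Sox2, a factor of neural stem cells, was at 82.3 ± 18.9 CPM with 2 Eomes UMIs and 169 ± 32.8 CPM with 9 or more. Genes of young neurons ran the other way. Tubb3, the neuronal tubulin, was at 1301 ± 151 CPM with 2 Eomes UMIs and 696 ± 191 CPM with 9 or more. Gap43, a growth cone protein, was at 352 ± 152 CPM with 2 Eomes UMIs and 137 ± 34.1 CPM with 9 or more. Igfbpl1 stayed level, at 2727 ± 85.1 CPM with 2 Eomes UMIs and 2725 ± 181 CPM with 9 or more. Depth had a median of 7866 UMIs with 2 Eomes UMIs and 9499 UMIs with 9 or more, and its part in these levels was not tested.

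**Figure D1:**
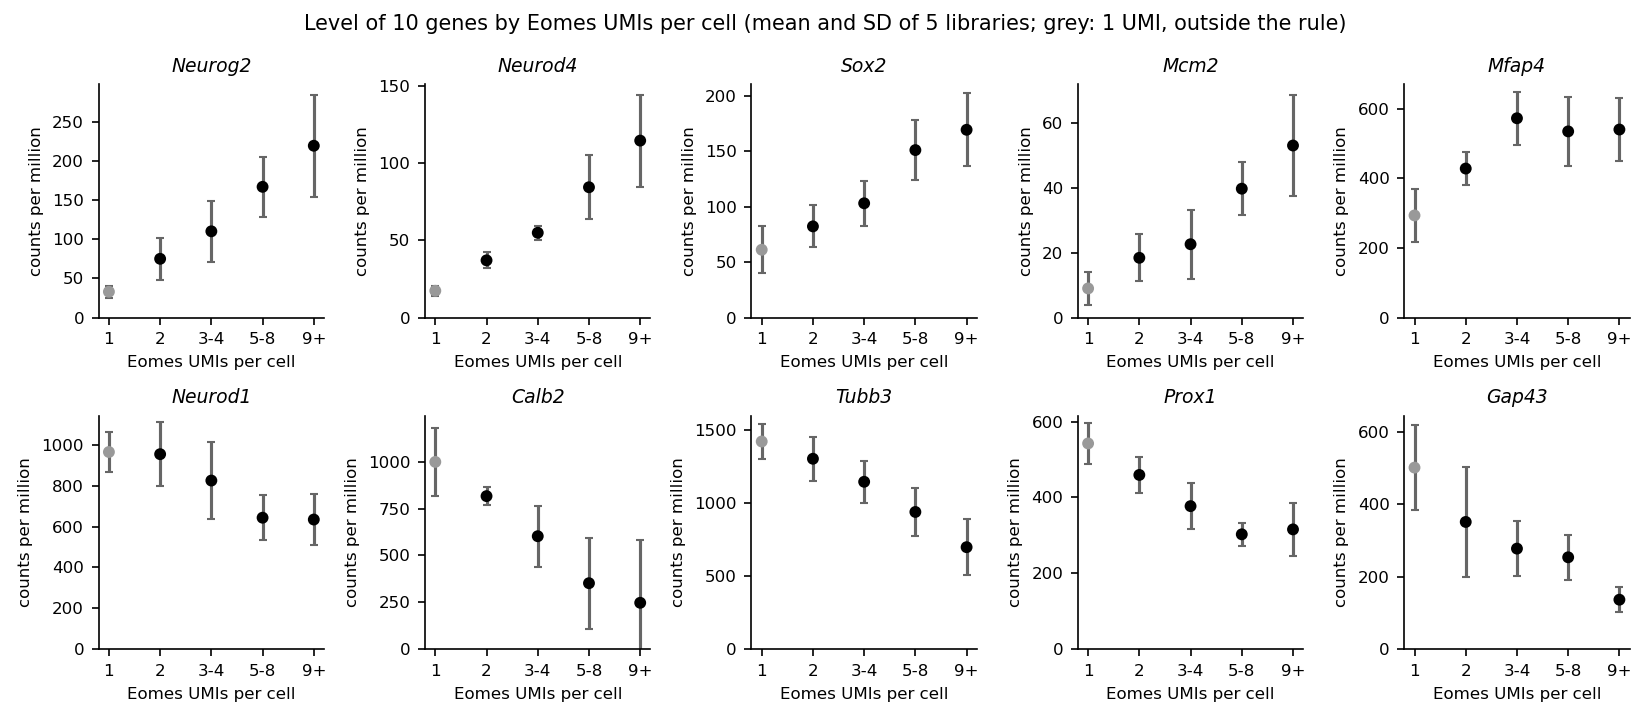
Levels of 10 genes in CPM (y axes, from 0) by the number of Eomes UMIs per cell (x axes), as mean and SD of 5 libraries. Neurog2, Neurod4, Sox2 and Mcm2 are higher and Calb2, Tubb3 and Gap43 lower with more Eomes UMIs, and grey points are the 934 cells with 1 Eomes UMI, outside the rule.

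Against Pax6 Sox2 cells, member cells had far more proneural transcripts and far fewer glial ones. UMIs were summed per library and cell set and tested with edgeR with the library as a block. Log2 differences are positive where member cells are higher and are given with their standard error (SE), and a gene is said to rise or fall where its Benjamini-Hochberg adjusted p was under 0.05. That was so for 68.5% of 12094 genes, 34.1% higher and 34.4% lower in member cells. Of 26 proneural and intermediate progenitor genes 23 rose and 1 fell, with a median log2 difference of 3.12, beside 0.03 over all genes. Neurod4 was at 59.8, 60.3, 72.7, 77.4 and 83.2 CPM in member cells of the 5 libraries, and between 0.178 and 0.633 CPM in Pax6 Sox2 cells (log2 difference 7.64, SE 0.18). Tac2 was at 600.3, 652, 675, 470.2 and 652 CPM in member cells, and between 2.02 and 6.16 CPM in Pax6 Sox2 cells (6.99, SE 0.15). Neither gene overlapped between the cell sets. Nhlh1, a helix-loop-helix factor, rose by 5.77 (SE 0.17) on the log2 scale, and Scrt2, a repressor tied to neuronal migration, by 5.04 (SE 0.14). Of the markers Mfng rose by 5.27 (SE 0.21), Mfap4 by 4.91 (SE 0.15), Igfbpl1 by 3.62 (SE 0.10) and Neurog2 by 3.13 (SE 0.16).

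Genes of radial glia fell as a group. Of 23 tested 21 fell and 2 rose, with a median log2 difference of -3.42. Ptn, a secreted growth factor, was at 307 ± 43.4 CPM in member cells and 6583 ± 557 CPM in Pax6 Sox2 cells (SD, n = 5 libraries each, as for all such values here). Aldoc, a glycolytic enzyme of astroglia, was at 29.8 ± 8.72 CPM in member cells and 1117 ± 95.1 CPM in Pax6 Sox2 cells. Of 26 genes of the Notch pathway 9 rose and 13 fell, beside 34.1% of all genes higher and 34.4% lower. The Notch effectors Hes1 and Hes5 fell by 4.40 (SE 0.15) and 3.49 (SE 0.12), the feedback gene Nrarp by 3.44 (SE 0.10) and the glycosyltransferase Lfng by 4.43 (SE 0.16) on the log2 scale. Dll3, a ligand of the Delta family, was at 45.4 ± 11.6 CPM in member cells and 5.47 ± 1.47 CPM in Pax6 Sox2 cells and rose by 3.05 (SE 0.15). All 10 genes of a list of Zbtb20 and nuclear factor I genes, which mark hippocampal and maturing cells, rose with a median of 1.63. Among them Nfix was at 3653 ± 238 CPM in member cells and 826 ± 81.3 CPM in Pax6 Sox2 cells. Of 20 immediate early genes, which dissociation can induce, 19 fell and 1 rose.

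**Figure D2:**
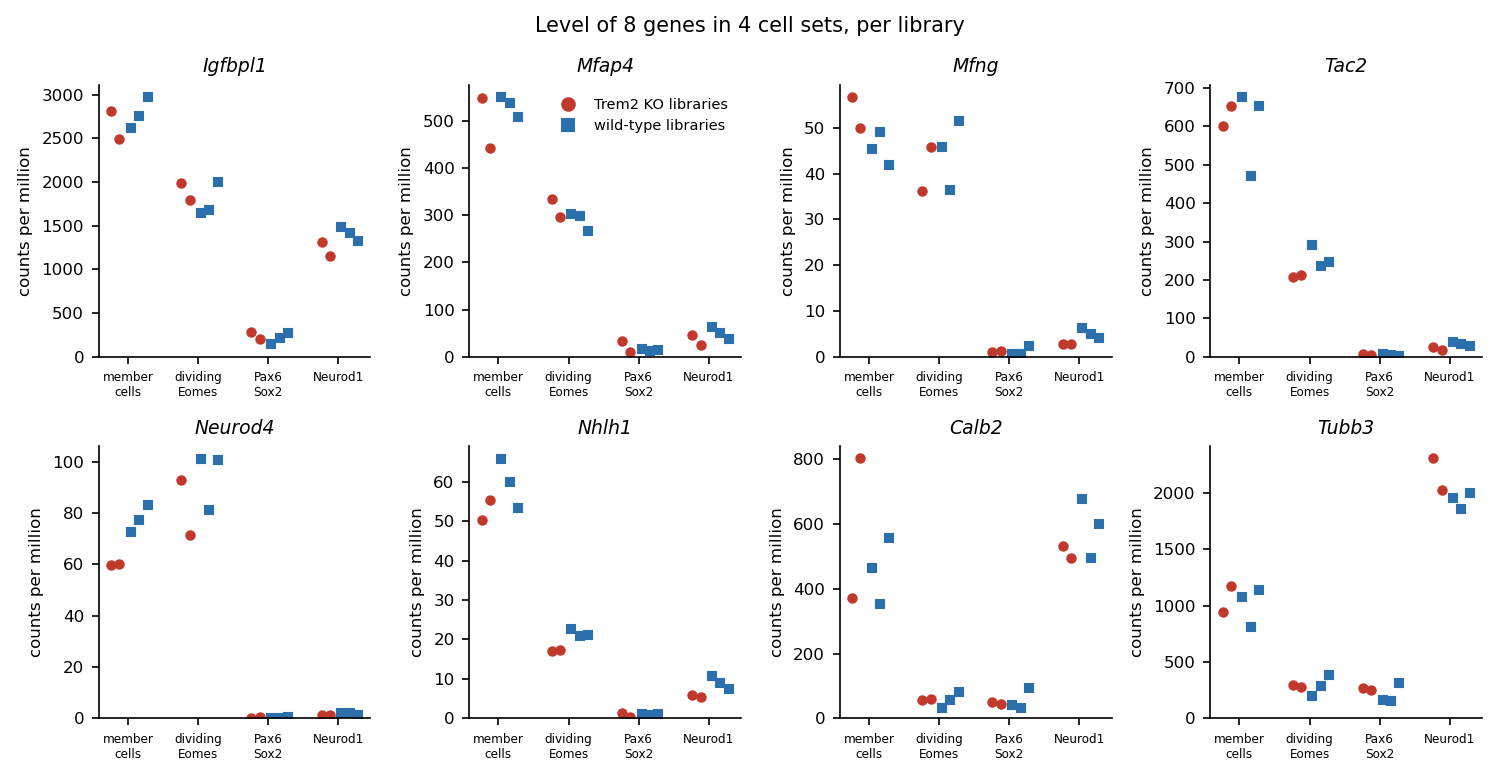
Levels of 8 genes in CPM (y axes, from 0) in member cells, dividing Eomes cells, Pax6 Sox2 cells and Neurod1 cells (x axes), with a point for each library (red circles, Trem2 KO; blue squares, wild type). Tac2 and Nhlh1 stand highest in member cells in all 5 libraries, and Tubb3 stands highest in Neurod1 cells.

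Against dividing Eomes cells, member cells had more transcripts of neurons. Genes of S, G2 and M phase are lower through the choice of cells and are no result. An adjusted p under 0.05 was reached by 47.5% of 11126 genes, 22.8% higher and 24.8% lower in member cells. Of 34 genes of early neuronal differentiation 33 rose and 1 fell, with a median log2 difference of 0.95, beside 0.01 over all genes. Tubb3 was at 1029 ± 153 CPM in member cells and 288 ± 66.6 CPM in dividing Eomes cells (1.77, SE 0.11). Dcx, a microtubule protein of migrating neurons, was at 660.2 ± 60.8 CPM in member cells and 319.8 ± 18.2 CPM in dividing Eomes cells (0.96, SE 0.06). Of 39 genes of migration and guidance 20 rose and 2 fell, among them the guidance cue Sema3c, which rose by 1.15 (SE 0.08). Of 25 radial glial genes 14 fell and 3 rose, with Sox2 falling by 1.25 (SE 0.06) and the filament gene Nes by 1.57 (SE 0.10). Calb2 rose by 3.06 (SE 0.16) with all cells and by 2.94 (SE 0.14) without the Ebf3 Nefl cells. The neurofilament Nefl had the highest log2 difference among named genes, 3.73, and without those cells its counts were too low to be tested.

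The proneural genes did not move together between the Eomes cell sets. Of 26 tested 13 rose and 6 fell. Neurod1, a factor of neuronal differentiation, was at 756 ± 130.2 CPM in member cells and 251 ± 32.7 CPM in dividing Eomes cells and rose by 1.51 (SE 0.06) on the log2 scale. Nhlh2 rose by 2.29 (SE 0.14), Nhlh1 by 1.44 (SE 0.10) and Tac2 by 1.26 (SE 0.07). Insm1, a zinc finger factor of intermediate progenitors, was at 60.1 ± 18.4 CPM in member cells and 173 ± 36.6 CPM in dividing Eomes cells and fell by 1.62 (SE 0.07) on the log2 scale. Neurog2 was at 140.1 ± 35.3 CPM in member cells and 223 ± 21.0 CPM in dividing Eomes cells and fell by 0.76 (SE 0.09). Among Notch ligands Dll1 fell by 0.98 (SE 0.16) and Dll3 rose by 0.62 (SE 0.14). Igfbpl1 rose by 0.51 (SE 0.04) and Mfap4 by 0.71 (SE 0.05), while Mfng had a log2 difference of 0.09 (SE 0.12, edgeR adjusted p 0.589). The median depth was 8340 UMIs in member cells and 13169 UMIs in dividing Eomes cells. With all cells thinned to 4000 UMIs the log2 differences of Neurod1, Insm1 and Neurog2 were 1.63, -1.51 and -0.80.

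Against Neurod1 cells, which hold later glutamatergic neurons, member cells had fewer neuronal and more proneural transcripts. An adjusted p under 0.05 was reached by 64.3% of 13230 genes, 32.7% higher and 31.6% lower in member cells. Neurog2 was at 140.1 ± 35.3 CPM in member cells and 9.27 ± 2.35 CPM in Neurod1 cells (3.88, SE 0.07). Mfap4 was at 517 ± 44.6 CPM in member cells and 44.7 ± 13.9 CPM in Neurod1 cells (3.54, SE 0.11). Igfbpl1 was at 2731 ± 184 CPM in member cells and 1338 ± 124 CPM in Neurod1 cells (0.99, SE 0.04), the smallest of the marker differences. Of 25 proneural genes 21 rose and 2 fell. Neurod4 rose by 5.42 (SE 0.12) and Tac2 by 4.42 (SE 0.14), while Neurod6, a factor of pyramidal neurons, fell by 1.81 (SE 0.05) on the log2 scale. Of 34 genes of early neuronal differentiation 29 fell and 2 rose, with a median of -1.41, beside 0.01 over all genes. Gap43 was at 265 ± 53.2 CPM in member cells and 1584 ± 134 CPM in Neurod1 cells, and the guidance receptor gene Nrp1 at 107 ± 20.5 CPM in member cells and 603 ± 50.6 CPM in Neurod1 cells.

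Progenitor genes stood above their level in Neurod1 cells. All 25 radial glial genes and all 20 S-phase genes tested rose, with medians of 1.54 and 1.83. Sox2 was at 126 ± 13.7 CPM in member cells and 11.1 ± 4.03 CPM in Neurod1 cells, and Mcm2 at 32.8 ± 5.33 CPM in member cells and 3.33 ± 0.651 CPM in Neurod1 cells. The receptor gene Notch1 rose by 3.30 (SE 0.20) and the cyclin gene Ccnd2 by 2.75 (SE 0.07). Of 26 genes of Wnt signalling 16 rose and 3 fell, with the transcription factor Lef1 at 1.98, SE 0.09.

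Genes of the respiratory chain had small median differences, and more of them fell than rose in most of these comparisons. Of 36 nuclear subunits of complex I, the entry to the chain, 2 rose and 9 fell against dividing Eomes cells, where 24.8% of all genes fell, with a median log2 difference of -0.04. Against Pax6 Sox2 cells 1 rose and 15 fell (median -0.08), beside 34.4% of all genes lower, and against Neurod1 cells 9 rose and 14 fell (median -0.02), beside 31.6%. Of 40 subunits of complexes II to V 3 rose and 18 fell against dividing Eomes cells (median -0.12), 4 rose and 15 fell against Pax6 Sox2 cells (median -0.08), and 7 rose and 21 fell against Neurod1 cells (median -0.13). The 13 mitochondrially encoded genes had 4 higher and 1 lower against dividing Eomes cells and the same counts against Pax6 Sox2 cells, and 1 higher and 10 lower against Neurod1 cells (median -0.18). Of 17 glycolytic genes tested 6 rose and 6 fell against dividing Eomes cells, with a median of 0.04. Against Pax6 Sox2 cells 3 of 18 rose and 13 fell, with a median of -0.47. Against Neurod1 cells 5 of 18 rose and 12 fell, with a median of -0.28.

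**Figure D3:**
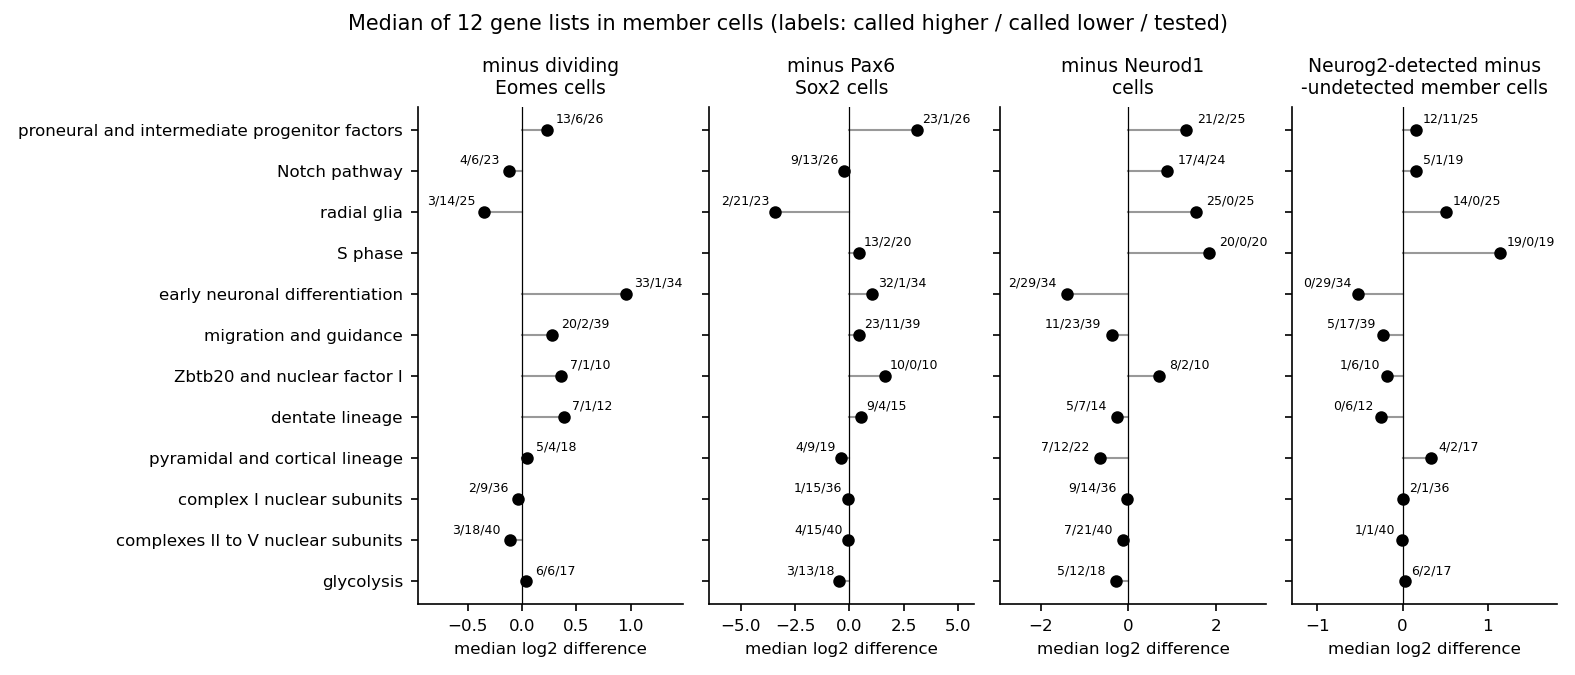
Median log2 difference (x axes) of 12 gene lists (rows) in member cells minus each of 3 other cell sets, and in Neurog2-detected minus Neurog2-undetected member cells; S phase is not shown against dividing Eomes cells. Labels give the genes called higher, called lower and tested, and early neuronal genes have a median of 0.95 against dividing Eomes cells and -1.41 against Neurod1 cells.

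Member cells differed among themselves by Neurog2. In 716 member cells with a Neurog2 UMI, set against 935 with none, 18.5% of 9839 genes passed, 9.73% higher and 8.73% lower in Neurog2-detected cells. All 19 S-phase genes tested rose, with a median log2 difference of 1.14, beside 0.00 over all genes. Mcm3 was at 59.9, 57.4, 68.5, 52.3 and 71.9 CPM in Neurog2-detected cells of the 5 libraries. In Neurog2-undetected cells it was at 22.6, 12.2, 19.1, 14.7 and 15.8 CPM (1.87, SE 0.14), and the cell groups did not overlap. Of 25 radial glial genes 14 rose and 0 fell. Sox2 was at 185 ± 26.9 CPM in Neurog2-detected cells and 81.5 ± 13.5 CPM in Neurog2-undetected cells. Btg2, an antiproliferative gene of neurogenic divisions, rose by 1.47 (SE 0.08), Hes6, an antagonist of Hes1, by 0.83 (SE 0.07), Notch1 by 1.20 (SE 0.10) and Ccnd2 by 1.37 (SE 0.06).

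Genes of young neurons fell in the Neurog2-detected cells. Of 34 early neuronal genes 29 fell and 0 rose, with a median of -0.52, and of 39 migration genes 17 fell and 5 rose. Calb2 was at 197 ± 45.4 CPM in Neurog2-detected cells and 743 ± 225 CPM in Neurog2-undetected cells (-1.89, SE 0.09). Neurod1 was at 527 ± 95.8 CPM in Neurog2-detected cells and 949 ± 163 CPM in Neurog2-undetected cells (-0.86, SE 0.07). Of 25 proneural genes 12 rose and 11 fell. Of the markers Mfng rose by 0.61 (SE 0.11), while Mfap4 fell by 0.35 (SE 0.07) and Igfbpl1 fell by 0.17 (SE 0.05) on the log2 scale. Complex I had 2 of 36 subunits higher and 1 lower. The median depth was 8624 ± 508 UMIs in Neurog2-detected cells and 8142 ± 568 UMIs in Neurog2-undetected cells. With cells thinned to 4000 UMIs before the split, at least 5 S-phase UMIs stood in 33.1% of 501 Neurog2-detected cells and 13.1% of 1133 Neurog2-undetected cells. In that fit 12 of 15 S-phase genes rose and 30 of 31 early neuronal genes fell, beside 7.91% of all genes higher and 7.79% lower. Without the Ebf3 Nefl cells, none of which had Neurog2, 19 of 19 S-phase genes rose and 26 of 33 early neuronal genes fell, beside 9.48% of all genes higher and 8.39% lower.

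Fewer genes passed when member cells were split by Prox1, where the undetected group was smaller than either Neurog2 group. The part of group size in that count was not tested. Prox1 is the homeodomain factor of dentate granule cells, and it had a UMI in 1303 member cells and none in 348. At 4000 UMIs it had a UMI in 61.0% of member cells, 60.7% of dividing Eomes cells, 37.9% of Neurod1 cells and 22.8% of Pax6 Sox2 cells, against 9.69% of C1q Csf1r cells. Of 9282 genes 20 passed (0.215%), 10 higher and 10 lower in Prox1-detected cells. Stat3, a transcription factor of cytokine signalling, was at 133, 142, 168, 133 and 136 CPM in Prox1-detected cells and 72.5, 55.1, 88.9, 66.6 and 83.3 CPM in Prox1-undetected cells of the 5 libraries (0.95, SE 0.11). Meis2, a homeobox gene, was at 117, 105, 96.3, 151 and 101 CPM in Prox1-detected cells and 400.4, 156, 389, 221 and 222 CPM in Prox1-undetected cells (-1.25, SE 0.18). For both genes Prox1-detected cells stood on 1 side in every library. The adhesion gene Flrt3 rose by 0.87 (SE 0.14), while Grp, which encodes gastrin-releasing peptide, fell by 1.69 (SE 0.18) and Slc17a6, a vesicular glutamate transporter gene, by 0.81 (SE 0.12) on the log2 scale. Prox1os rose by 1.45 (SE 0.18), but it lies antisense to Prox1 and overlaps it, so its reads cannot be told apart with certainty. Of 11 dentate genes 0 passed with edgeR, and 9 lay above 0, with a median of 0.38. An unadjusted p under 0.05 was reached by 7 of them, and by 1191 of 9282 genes in all.

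Of the 39 Ebf3 Nefl cells 38 lay in the Prox1-undetected group, and the calls depended on them. Without these cells 152 of 9146 genes passed, 72 higher (0.787%) and 80 lower (0.875%) in Prox1-detected cells. Neurod1 had a log2 difference of 0.60 (SE 0.12, edgeR adjusted p 0.0574) with all cells and rose by 0.39 (SE 0.06) without them. Then 3 of 11 dentate genes rose, which were the transcription factors Lef1 by 0.66 (SE 0.16) and Emx1 by 0.38 (SE 0.09) and the semaphorin Sema5a by 2.22 (SE 0.32). Of 16 pyramidal and cortical genes 4 fell, with log2 differences of -1.37 (SE 0.33) for Pou3f1, -1.11 (SE 0.17) for Pou3f2, -0.62 (SE 0.09) for Pou3f3 and -1.25 (SE 0.28) for Crym. Genes named from this fit were chosen after their values were seen. Depth had a median of 8457 ± 626 UMIs in Prox1-detected cells and 7920.5 ± 1009 UMIs in Prox1-undetected cells. With cells thinned to 4000 UMIs before the split 75 genes passed, with Meis2 at -1.42, Grp at -2.46, Stat3 at 0.56, Neurod1 at 0.43, Sema5a at 1.34 and Pou3f3 at -0.52. In that fit Flrt3 at 0.38, Lef1 at 0.32, Emx1 at 0.35, Pou3f2 at -0.70 and Crym at -0.31 did not pass, and Pou3f1 was too low to be tested. With doublets removed 4 genes passed, and Meis2, at -1.35, did not.

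**Figure D4:**
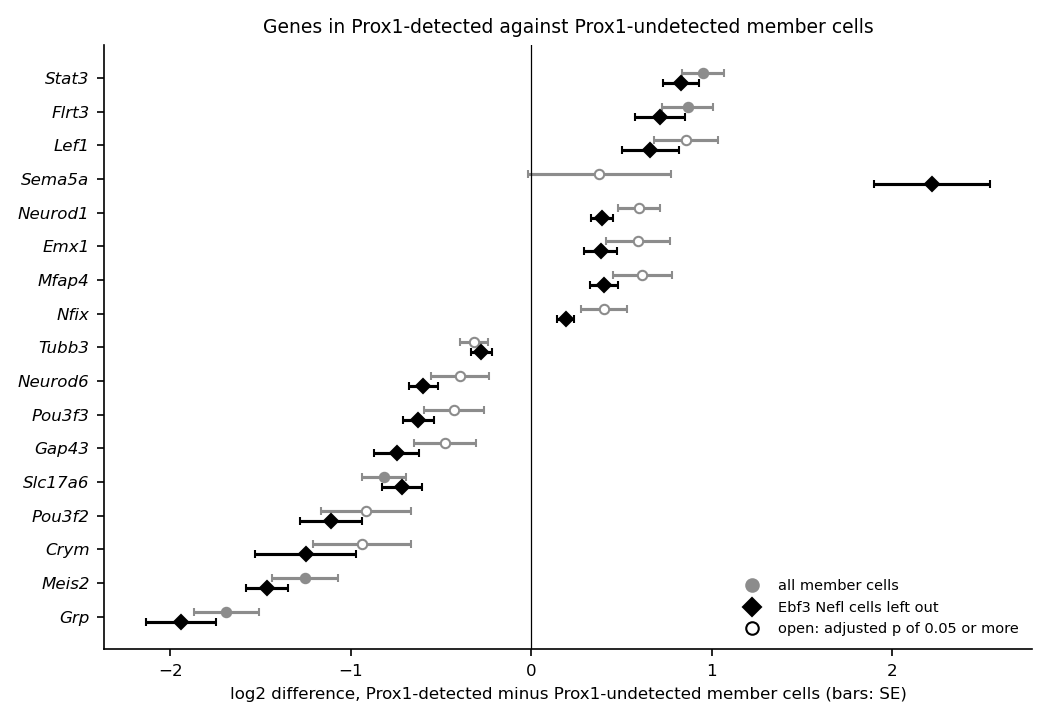
Log2 difference (x axis, with SE) of 17 genes in Prox1-detected minus Prox1-undetected member cells, with all member cells (grey) and with the Ebf3 Nefl cells left out (black). Open symbols have an adjusted p of 0.05 or more, and Meis2 and Grp pass with either set of cells.

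The shares of member cells overlapped between Trem2 knockout and wild-type libraries. They were 5.61 and 4.67% of kept cells in the KO libraries and 5.88, 6.997 and 4.42% in the WT libraries. Exact 95% binomial intervals, which cover counting error only, reached from 3.99% to 7.76% over the 5 libraries. The means were 5.14 ± 0.664% in KO and 5.76 ± 1.29% in WT libraries (SD, n = 2 and 3), with an exact two-sided permutation p of 0.5, where the smallest that 10 assignments allow is 0.1. Among Eomes cells, 72.2 and 70.2% met the limit on Mki67 and Top2a in the KO libraries and 65.8, 69.0 and 71.6% in the WT libraries (exact permutation p 0.4). Prox1 had a UMI in 79.3% and 72.4% of member cells in the KO libraries and in 82.6%, 80.3% and 78.2% in the WT libraries. Without the Ebf3 Nefl cells these shares were 79.3% and 82.6% in the KO libraries and 82.6%, 81.8% and 78.2% in the WT libraries. Neurog2 had a UMI in 50.6% and 34.2% of member cells in the KO libraries and in 40.6%, 52.4% and 38.3% in the WT libraries, and these too overlapped. Cells had a median of 8522 ± 223 UMIs in KO and 8287 ± 814 UMIs in WT libraries (exact permutation p 0.900).

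No gene passed between knockout and wild-type member cells. Of 11633 genes tested 0 passed (0%) with edgeR, and 405 had an unadjusted p under 0.05. DESeq2 called 3, with Col1a2 higher and Fabp7 and Ctla2a lower in KO, the last named after its values were seen. The markers had log2 differences of 0.24 for Mfng, -0.07 for Igfbpl1, -0.09 for Mfap4 and -0.28 for Neurog2. Without the Ebf3 Nefl cells Mfng stood at 0.33, Igfbpl1 at 0.04, Mfap4 at 0.01 and Neurog2 at -0.20. Of 26 proneural genes 13 lay above 0, with a median of 0.01. In 6 of them the libraries of the genotypes did not overlap, which held for 17.2% of all genes. Neurod1 was at 655 and 647 CPM in the KO libraries and 967, 732 and 780.04 CPM in the WT libraries (log2 difference -0.34, SE 0.13). Neurod4 was at 59.8 and 60.3 CPM in the KO libraries and 72.7, 77.4 and 83.2 CPM in the WT libraries (-0.37, SE 0.13). Nhlh2 was at 58.0 and 76.8 CPM in the KO libraries and 115, 87.5 and 93.9 CPM in the WT libraries (-0.56, SE 0.17). In these 3 genes both KO libraries lay below all WT libraries, each with an edgeR adjusted p of 0.999. Without the Ebf3 Nefl cells the log2 differences were -0.22 (SE 0.13) for Neurod1 and -0.48 (SE 0.17) for Nhlh2. Prox1 was at 333 and 292 CPM in the KO libraries and 390.4, 391 and 387 CPM in the WT libraries (-0.31, SE 0.11), and did not pass either. KO replicate 3 held 33 Ebf3 Nefl cells, of which 1 had a Prox1 UMI. The levels of Prox1 and Neurod4 without such cells are not given here, so their part in these differences was not tested.

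Fabp7, a fatty acid binding protein of radial glia, had the smallest p of the genes lower in KO. It was at 364 and 345 CPM in the KO libraries and 719, 727 and 508 CPM in the WT libraries, with a log2 difference of -0.88 (SE 0.16, edgeR adjusted p 0.901), and of -0.31 with doublets removed. Single cells carried much of it, with 29.7 and 33.9% of its UMIs in 1 member cell in the KO libraries and 14.4, 22.4 and 17.3% in the WT libraries. Ptprz1, a receptor phosphatase of radial glia, was at 146 and 112 CPM in the KO libraries and 223, 187 and 234 CPM in the WT libraries (-0.72, SE 0.15), and its log2 difference was 0.12 with doublets removed. Of 25 radial glial genes 7 lay above 0, with a median of -0.09, and none passed. In dividing Eomes cells Fabp7 was at 307 and 314 CPM in the KO libraries and 558, 708 and 372 CPM in the WT libraries, and in Neurod1 cells at 161 and 113 CPM in the KO libraries and 409.7, 408 and 295 CPM in the WT libraries. In Pax6 Sox2 cells, where it was highest, Fabp7 was at 20903 and 17345 CPM in the KO libraries and 23286, 22739 and 14671 CPM in the WT libraries, and there the genotypes overlapped. Pax6 Sox2 cells made up 7.05 and 6.21% of kept cells in the KO libraries and 11.97, 11.2 and 6.80% in the WT libraries, and the part of that share in the result was not tested.

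Of the genes higher in KO with the smallest p, Col1a2, a collagen chain of fibroblasts, had 47 and 60 UMIs in 2 and 5 member cells of the KO libraries, against 5, 10 and 1 UMIs in 3, 6 and 1 member cells of the WT libraries (3.59, SE 0.50, edgeR adjusted p 0.279). A list of fibroblast, choroid plexus and ependymal genes summed to 1743 and 37.2 CPM in the KO libraries and 34.9, 22.6 and 21.1 CPM in the WT libraries. In KO replicate 2, 1 cell held 4735 of the 4970 UMIs of Ttr, a transcript of choroid plexus, so that sum is mostly 1 cell. The part of these genes in the Col1a2 result was not tested, and without cells that carry 3 markers of another type Col1a2 was too low to be tested. Flrt2, an adhesion and guidance gene, was at 34.0 and 42.9 CPM in the KO libraries and 16, 22.3 and 14.9 CPM in the WT libraries (1.11, SE 0.22). Without cells that carry 3 markers of another type its log2 difference was 0.32. Opcml, an adhesion gene of neurons, was at 96.9 and 163 CPM in the KO libraries and 72.7, 50.0 and 76.3 CPM in the WT libraries (0.96, SE 0.22, edgeR adjusted p 0.999), and its log2 difference was 0.53 without the Ebf3 Nefl cells. The other genes with the smallest p had log2 differences of 3.29 for Adamts5 and 2.96 for Rgs8, and of -1.14 for Slc4a4, -1.06 for Lxn and -1.20 for Zfp36, and none passed. With doublets removed these were 3.81 for Adamts5, 3.24 for Rgs8, -0.28 for Slc4a4, -0.55 for Lxn and -0.26 for Zfp36. Adamts5 and Rgs8 were too low to be tested without the Ebf3 Nefl cells. They were also too low with thinned cells and without cells that carry 3 markers of another type. In KO replicate 2, 1 cell held 11 of the 14 Adamts5 UMIs and 10 of the 12 Rgs8 UMIs. In KO replicate 3, 1 cell held 5 of 30 and 3 of 27 at most. Nefl was at 6.18 and 321 CPM in the KO libraries and 12.5, 31.2 and 8.12 CPM in the WT libraries, so that KO replicate 3, which holds most Ebf3 Nefl cells, stood apart.

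**Figure D5:**
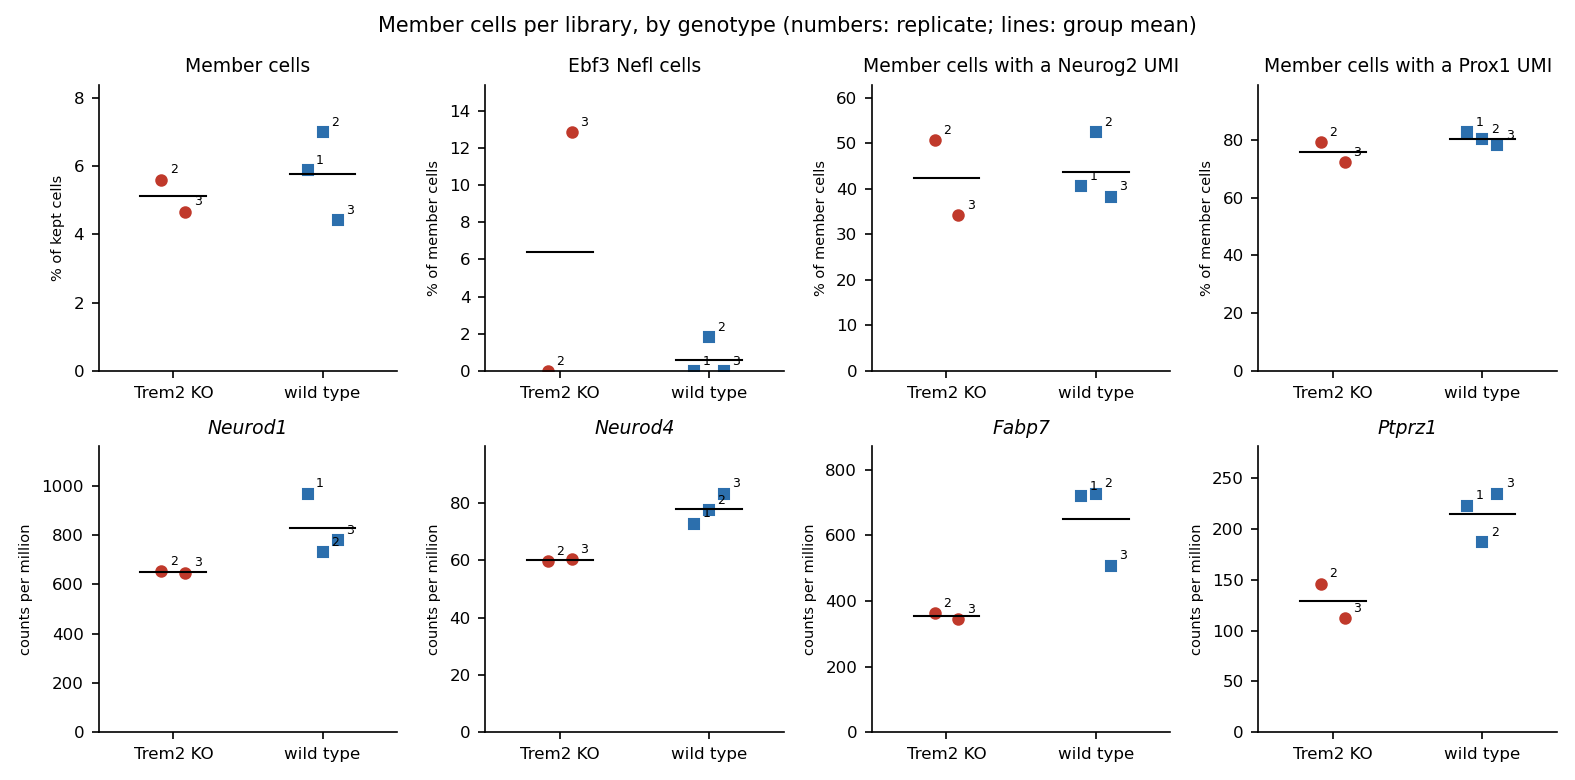
Shares (upper row, %) and levels of 4 genes (lower row, CPM) in member cells of each library, Trem2 KO at left and wild type at right, with y axes from 0, replicate numbers beside points and lines at group means. The Ebf3 Nefl cells stand at 12.8% in KO replicate 3, and both KO libraries lie below all 3 WT libraries for Neurod1, Neurod4, Fabp7 and Ptprz1. None of these 4 genes passed with edgeR, and the genotypes did not overlap in 17.2% of all genes.

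Energy genes, the subject of the study's title, gave no call in member cells with edgeR. Of 36 complex I subunits 22 lay above 0 with a median log2 difference of 0.05, and 0 had an unadjusted p under 0.05. Of 40 subunits of complexes II to V 18 lay above 0 with a median of -0.01, and of 13 mitochondrially encoded genes 8 did, with a median of 0.05. Of 18 glycolytic genes 11 lay above 0 with a median of 0.07, and 3 had an unadjusted p under 0.05, as had 405 of 11633 genes in all. The count was 0 for complexes II to V and 0 for the mitochondrially encoded genes. Among the glycolytic genes the enolase gene Eno1 was at 89.6 and 90.8 CPM in the KO libraries and 70.7, 69.7 and 81.2 CPM in the WT libraries (0.29, SE 0.13, edgeR adjusted p 0.999). Lower in KO were Aldoc (-0.71, SE 0.21) and Slc2a1, a gene of glucose uptake (-1.52, SE 0.63), each with an edgeR adjusted p of 0.999. Aldoc was at 0.18 with doublets removed, and Slc2a1 overlapped between the genotypes. Without the Ebf3 Nefl cells the medians were -0.01 for complex I, -0.04 for complexes II to V and -0.02 for glycolysis. Mrps10, a gene of the mitochondrial ribosome named after its values were seen, was at 93.1 and 90.8 CPM in the KO libraries and 57.3, 54.8 and 74.1 CPM in the WT libraries (0.57, SE 0.15, edgeR adjusted p 0.999). Its log2 ratio of mean CPM, KO over WT, was 0.56 in member cells and 0.75 in dividing Eomes cells. The ratio was 0.65 in Pax6 Sox2 cells and 0.64 in Neurod1 cells. Mrps10 lies at chr17:47368887-47381417, on the chromosome of Trem2 at chr17:48346401-48354147 (GRCm38.p6), and the part of this position was not tested.

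The effect of the knockout was compared between member cells and dividing Eomes cells in 1 model. Of 11940 genes 1 passed (0.00838%), which was Col1a2. Its log2(CPM + 0.5) difference between KO and WT was 3.50 in member cells and -1.68 in dividing Eomes cells, and the fitted difference of effects was 6.14 (SE 0.52, edgeR adjusted p 0.000920). Its ratio of member cells to dividing Eomes cells did not overlap between the genotypes, which held for 20.2% of all genes. Col1a2 had a difference of 8.80 (SE 1.89, edgeR adjusted p 0.130) with thinned cells. No gene passed with edgeR once cells with 3 markers of another type were left out, where 424 had an unadjusted p under 0.05, and DESeq2 with all cells called 1. The effects on the markers differed by -0.16 for Igfbpl1, -0.22 for Mfap4, 0.36 for Mfng and -0.25 for Neurog2, and none passed.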

How the data were processed

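The deposited files hold whole-number UMI counts for 32285 genes per barcode of 5 libraries, 2 Trem2 KO and 3 WT, made by the authors with Cell Ranger 6.1 on mm10, per the submitters' processing notes. Library totals were 60024793 to 91205882 UMIs. Members and gene lists were chosen with earlier results of these data known.

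Counts of the cells of a set were summed per library and tested with edgeR 4.0.16 in R 4.3.3 (TMM, filterByExpr, quasi-likelihood test, Benjamini-Hochberg adjustment over all genes tested). KO and WT were compared with genotype as the only term, and cell sets of the same libraries with the library as a block. Shares and depths were compared by exact permutation over libraries. CPM values were computed from the summed counts, and doublets were not removed unless stated.

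The text names the markers and rule genes, for each direction the 8 strongest called genes at most (by log2 difference, mean of 20 counts or more, same sign in all libraries or no overlap of genotypes), and up to 4 genes of each list. Where fewer than 3 were called between genotypes, the 5 with the smallest p in each direction were taken, leaving out Gm and Rik symbols and sex-chromosome genes; genes outside this rule are said to be chosen after their values were seen. Alternatives were DESeq2 1.42.0, RLE factors, no filter, 5% mitochondrial UMIs, other Eomes limits, removal of the cells with the highest Scrublet scores (0.8% per 1000 barcodes), cells thinned to 4000 UMIs, a replicate block, male pups as a covariate and each library left out. Leaving out the Ebf3 Nefl cells or cells with 3 markers of another type was chosen after seeing the data. The fits were tested on simulated data.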

Additional observations from a re-analysis of the deposited data

Results flagged for a closer look

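The effect of the knockout on Col1a2 differed between member cells and dividing Eomes cells by 6.14 on the log2 scale (SE 0.52, edgeR adjusted p 0.000920), by a test of the difference itself. In member cells 1 cell held 34 and 38 of the 47 and 60 Col1a2 UMIs of the KO libraries, and 3, 4 and 1 of the 5, 10 and 1 UMIs of the WT libraries. With thinned cells the difference was 8.80 (SE 1.89, edgeR adjusted p 0.130), and at 5% mitochondrial UMIs it was 5.42 and did not pass. Without cells that carry 3 markers of another type, or with doublets removed, Col1a2 was too low to be tested, and the 4 genes that passed with doublets removed were others.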

How the results depend on the processing

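For KO against WT, where edgeR called 0 genes, DESeq2 called 3, edgeR without a filter on low counts 162, cells with at most 5% mitochondrial UMIs 1, cells with at least 3 Eomes UMIs 1 and a term for male pups per pool 2. Leaving out 1 library at a time gave 0 to 76, with 76 without KO replicate 2, 10 without KO replicate 3 and 1 without WT replicate 1, where a lone KO library is assumed to vary like the WT libraries. With the replicate number as a replicate block, 10 genes passed, among them Hbb-bs, Hba-a1, Cldn5 and Flt1, genes of red cells and endothelium that were lower in KO, and Opcml (log2 difference 1.03, edgeR adjusted p 0.0336). Opcml also passed with the term for male pups (log2 difference 1.06, edgeR adjusted p 0.00521). KO and WT libraries share the numbers 2 and 3, and the correlations of their deviations were 0.234 and 0.164. For KO replicates 2 and 3 with WT replicate 1 they were -0.11 and 0.11. With 2 KO libraries the deviations of 1 mirror those of the other, so these values are not independent and cannot tell whether libraries are paired. Only 2 pairs exist and no label says that a number marks a shared litter or day. Relative to 5289 against dividing Eomes cells, DESeq2 called 3350 and cells thinned to 4000 UMIs gave 3360. The counts against Pax6 Sox2 and Neurod1 cells stayed within 1.5 times under every alternative run. The Prox1 split had 20 calls, and 540 without the filter, 79 at 5% mitochondrial UMIs, 4 with doublets removed, 75 with thinned cells, 82 without cells of 3 markers of another type, 152 without the Ebf3 Nefl cells and 2 to 98 without 1 library, the highest without KO replicate 3. The Neurog2 split had 1816, and 690 with DESeq2, 516 at 5% mitochondrial UMIs and 1171 with thinned cells. The difference of genotype effects had 1, and 53 without the filter, 4 with doublets removed, 0 at 5% mitochondrial UMIs, 0 with thinned cells, 0 without cells of 3 markers of another type and 1 to 5 without 1 library. The cause of these moves was not tested.

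The share of Eomes cells within the limit on Mki67 and Top2a was 2.37 percentage points higher in KO, and -0.951 at 5% mitochondrial UMIs. The median depth was 235 UMIs higher in KO, and -132 at 5% mitochondrial UMIs and -210.2 to 588 without 1 library. Among named genes in KO against WT, with doublets removed Ptprz1 was at 0.12 and Aldoc at 0.18, and without the Ebf3 Nefl cells Igfbpl1 was at 0.044 and Mfap4 at 0.0097. Without 1 library Igfbpl1 ranged over -0.17 to 0.035, Mfap4 over -0.28 to 0.066, Neurog2 over -0.86 to 0.12 and Nefl over -1.46 to 4.20. Against dividing Eomes cells Mfng was at -0.027 at 5% mitochondrial UMIs and ranged over -0.013 to 0.21 without 1 library. Direction and call held in 336 of 336 checks of named genes against Pax6 Sox2 cells, 262 of 262 against Neurod1 cells, 259 of 264 in the Neurog2 split and 109 of 152 in the Prox1 split. With 2 and 3 libraries, exact tests of shares could not go below 0.1.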
